A study of Mus musculus with 15 samples.

Results

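The collagen chains are the genes whose products wind into the triple helices of the collagen family. Every gene symbol made of Col, a type number, a and a chain number was taken, where a probe set named that 1 symbol, which gave 42 chains among 18193 genes tested. They were sorted by the structure their proteins build into 11 fibrillar chains, 8 basement membrane chains and 23 other chains. The RefSeq gene table listed 44 such symbols, and the other 2, Col6a6 and Col28a1, were not measured by a probe set used here.

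Collagen chains are made in the endoplasmic reticulum, hydroxylated, wound into trimers and secreted. Fibrillar collagens, chiefly types I and III with type V inside the same fibrils, form the rope-like fibres of airway and vessel walls and of the alveolar septa, and fibroblasts make most of them. Type IV chains form the sheet under epithelium and endothelium. In the alveolar wall the Col4a3, Col4a4 and Col4a5 chains build 1 network and the Col4a1 and Col4a2 chains another. The remaining types join fibrils to other structures, form beaded filaments or short networks, or sit in the cell membrane.

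RNA of mouse lung was measured on 12 Affymetrix arrays in 4 groups of 3. The groups were lung tumours from mutant mice aged 12 months, which carry deleted Smad4 alleles (Smad4d/d), wild type lungs of 12 months, lungs of mice of the same mutant genotype at 7 months, and wild type lungs of 7 months. All mice had a mixed background, normal feed and no treatment. Smad4 encodes the shared mediator of TGF-beta and BMP signalling, and the effects below are effects of the mutant genotype, with no allele singled out. Each tumour sample was a piece of a single tumour and each lung sample a piece of whole lung. The cell type and driver of the deletion are not given in the sources used here. The labels give no animal number for 1 of the tumours or for the 7-month arrays, so p-values measure the spread between these samples, which may be partly technical. The series sets the tumours against wild type lung to find genes changed in late disease, and the 7-month mutant lungs against wild type to find genes changed before tumours begin.

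Array medians were close, from 98.0 to 99.5 in tumours, 95.7 to 98.1 in wild type lungs of 12 months, 93.8 to 94.3 in mutant lungs and 90.9 to 93.0 in wild type lungs of 7 months. The surfactant gene Sftpc, which marks alveolar type 2 cells, was bright in all 4 groups, at 11520 to 12100 in tumours and 11670 to 12260 in wild type lungs of 12 months. Smad4 itself was 2965 to 3688 in tumours against 2664 to 2924 in wild type lungs (adjusted p = 0.213, limma), and 3166 to 3364 in mutant against 3163 to 3304 in wild type lungs at 7 months (adjusted p = 0.799, limma), so its probe set did not separate the genotypes. The 18S control stood apart in the tumours, at 1121 to 2036 against 5492 to 6933 in wild type lungs of 12 months. The female RNA Xist was 64.1 to 237 on the tumour arrays, while the wild type arrays of 12 months ranged from 69.8 to 6917 with 2 of 3 high, so sex was not balanced there. At 7 months Xist was 4516 to 4902 in mutant and 48.1 to 4959 in wild type lungs. The male gene Eif2s3y was 804 to 889 on the same mutant arrays and 727 to 1504 on the wild type arrays, so each mutant array held RNA of both genes, and the labels do not say whether an array is 1 animal.

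Of the 42 chains 7 were higher in the 12-month tumours than in wild type lung and 2 were lower at an adjusted p under 0.05 (limma, Benjamini-Hochberg over all genes). Those counts are 16.7% and 4.76% of the chains, beside 9.23% of all genes higher and 6.02% lower. The chains that rose came from all 3 classes: fibrillar Col5a3 and Col27a1, the basement membrane chain Col15a1, and Col17a1, Col25a1, Col8a1 and Col7a1. The chains that fell were Col13a1 and Col23a1, both membrane-spanning collagens. At 7 months Col15a1 and Col8a2 were higher in mutant lungs, 4.76% of the chains beside 6.42% of all genes, and 0 chains were lower beside 1.39% of all genes. Without adjustment, 5 chains (11.9%) were higher and 6 (14.3%) lower in mutant lungs at p under 0.05, beside 14.1% of all genes higher and 9.21% lower (limma).

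**Figure D1:**
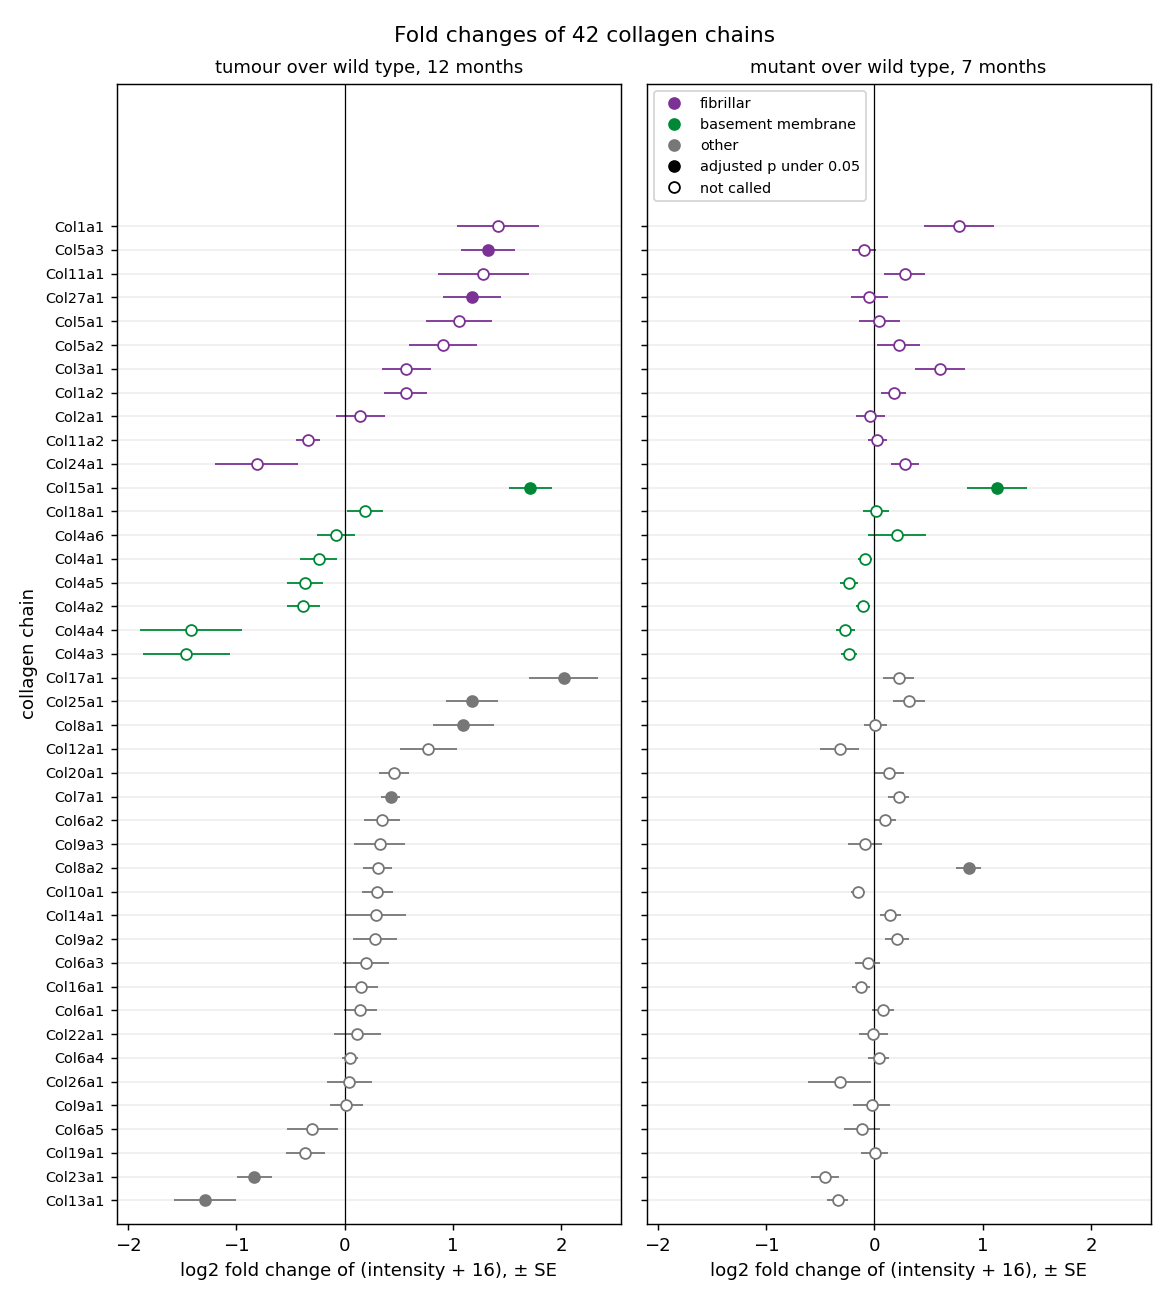
Log2 fold change of intensity + 16 for each of the 42 collagen chains (points, with standard error) in tumour over wild type at 12 months and in mutant over wild type at 7 months; filled points passed an adjusted p of 0.05. At 12 months the points spread from -1.46 for Col4a3 to 2.02 for Col17a1. At 7 months they spread from -0.46 for Col23a1 to 1.13 for Col15a1, with Col8a2 at 0.87 and the uncalled Col1a1 at 0.78.

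The fibrillar chains were shifted upward in the tumours as a class, with a median log2 fold change of 0.91 beside 0.01 for all genes and 0.24 for all collagen chains. Of the 11 fibrillar chains 9 had a positive log2 fold change and 7 had every tumour array above every wild type array, but only 2 passed the test. Over all genes, 20.5% were separated in that way. Across the whole collagen family 14 chains, or 33.3%, had all tumour arrays above all wild type arrays and 6 chains, or 14.3%, had all below, beside 17% of all genes.

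Col5a3, a chain of the regulatory type V collagen that sits inside fibrils, had intensities of 112, 185 and 227 in tumours, against 48.2, 55.4 and 71.3 in wild type lungs. The lowest tumour lay above the highest wild type lung. The rise was 1.32 ± 0.25 on the log2 scale (SE, n = 3 each), or 2.50-fold, with an adjusted p of 0.0215 (limma). With all its probe sets averaged the log2 fold change was 0.62 and did not pass (adjusted p = 0.0797, limma). The further probe set in that average was very dim, with means of 3.56 in tumours and 4.72 in wild type lungs. Col27a1, a fibrillar chain best known from cartilage, had 641, 459.5 and 989 in tumours, against 282, 313 and 262 in wild type lungs. It too was separated between the groups, and it rose by 1.18 ± 0.27 on the log2 scale, or 2.26-fold (adjusted p = 0.0347, limma).

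The chains of the main lung fibrils did not pass the test at 12 months. Col1a1, which pairs with Col1a2 in type I collagen, had 1132, 1740.4 and 2618 in tumours, against 405, 778 and 823 in wild type lungs. All tumours lay above all wild type lungs, and the tumours differed among themselves by 2.31-fold and the wild type lungs by 2.03-fold. The log2 fold change was 1.41 ± 0.38 (adjusted p = 0.0560, limma), and the residual spread of Col1a1 between arrays of a group was larger than that of 97.3% of genes. Col1a2 had 5603, 7038 and 8810.2 in tumours, against 3916, 5315 and 5145 in wild type lungs. Its log2 fold change was 0.56 ± 0.20 (adjusted p = 0.113, limma). Col3a1, the single chain of type III collagen, had 6673, 9017 and 10857 in tumours, against 4593, 6693 and 6534 in wild type lungs, and the lowest tumour was just below the highest wild type lung. Its log2 fold change was 0.57 ± 0.23 (adjusted p = 0.150, limma).

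Chains that join or regulate these fibrils did not pass either. Col5a1 had 456, 698 and 1115 in tumours, against 299, 359.7 and 347 in wild type lungs (log2 fold change 1.05 ± 0.31, adjusted p = 0.0686, limma). Col5a2 had 1361, 1804 and 2939 in tumours, against 769.8, 1130.4 and 1231 in wild type lungs (0.91 ± 0.31, adjusted p = 0.107). Both chains, which join into type V collagen, were separated between the groups. Col11a1, a cartilage chain that can also enter type V trimers, was dim at 37.1, 34.7 and 131 in tumours, against 16.8, 16.6 and 10.02 in wild type lungs. The brightest tumour, array 3, added most to the size of the difference (1.28 ± 0.42, adjusted p = 0.0929, limma). It also widened the spread, and in the fit without that array Col11a1 was called higher. With every probe set fitted on its own, a further probe set of Col11a1 passed (1.57, adjusted p = 0.0481, limma). When the spread was taken from all 15 arrays in 1 model, Col1a1 (adjusted p = 0.0137), Col1a2, Col5a1, Col5a2 and Col11a1 passed (limma). Col3a1 did not pass in that model (adjusted p = 0.112, limma), and the count of chains called became 14 higher and 6 lower. The share of all genes called in that model was not counted. Residual SDs were smaller at 7 than at 12 months for Col1a2 (0.151 against 0.287) and Col5a1 (0.268 against 0.456), but not for Col3a1 (0.332 against 0.329). The other fibrillar chains were dim and did not pass: Col2a1, the main chain of cartilage fibrils, had a log2 fold change of 0.14, Col11a2 of -0.34 and Col24a1 of -0.81 (limma).

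Some fibrillar chains shared their lowest array within a group. The array lowest for Col1a1 was array 1 in each of the 4 groups, and it was also the lowest for Col1a2, Col3a1, Col5a1, Col5a2 and Col5a3. Thus 6 of the 11 fibrillar chains shared it in every group and 5 did not. Outside this class, the type VI chains Col6a1, Col6a2 and Col6a3 were also lowest on array 1 in every group. The shared lowest array was therefore not particular to fibrillar chains. The highest array was shared less: array 3 was highest for Col1a1 in each group, and of the other fibrillar chains Col5a2 alone followed it in every group. It was highest for 10 of the 11 fibrillar chains in tumours, 4 in wild type lungs of 12 months, 7 in mutant lungs and 5 in wild type lungs of 7 months. The array lowest for Col1a1 was the lowest for 7 fibrillar chains in tumours, 7 in wild type lungs of 12 months, 9 in mutant lungs and 9 in wild type lungs of 7 months. The ratio of the highest to the lowest array for Col1a1 was 2.31 in tumours, 2.03 in wild type lungs of 12 months, 2.51 in mutant lungs and 1.87 in wild type lungs of 7 months. For Col3a1 the same ratio was 1.63 in tumours, 1.46 in wild type lungs of 12 months, 1.88 in mutant lungs and 1.52 in wild type lungs of 7 months. The type IV chain Col4a1 varied less, with ratios of 1.45 in tumours, 1.30 in wild type lungs of 12 months, 1.11 in mutant lungs and 1.05 in wild type lungs of 7 months. At 12 months the array numbers were given in accession order and only name a sample. The labels do not say whether arrays of 1 number share a processing day or another source, and the cause of this variation was not tested.

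**Figure D2:**
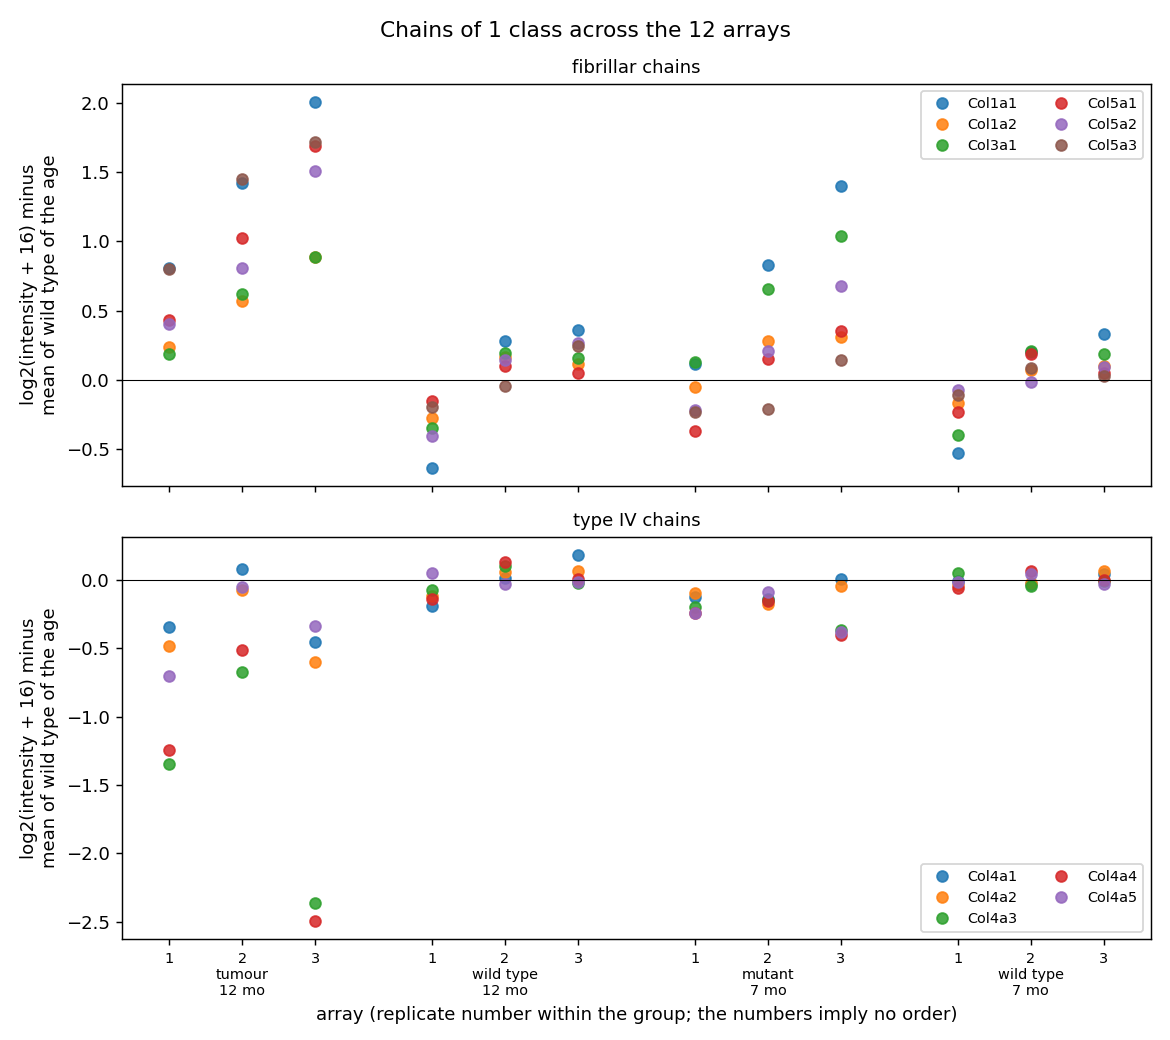
Level of each chain on each array (vertical axis, log2 of intensity + 16 minus the mean of wild type lungs of the same age) for 6 fibrillar chains above and 5 type IV chains below, on 3 arrays in each of the 4 groups (horizontal axis). The fibrillar chains are lowest together on 1 array of each group, and Col4a3 and Col4a4 are lowest in the tumours.

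The promoters of 4 of the 6 fibrillar chains that shared their lowest array, and of Col15a1 and Col17a1, are printed to show how far such genes share promoter letters. Each is the 250 bases before the RefSeq start site in GRCm38.p6, 5′ to 3′ on the strand of the gene, with every CAGAC or GTCTG in capitals. CAGAC and its reverse complement are the letters of a binding element of Smad proteins.
Col1a2, chr6:4505368-4505617, plus strand: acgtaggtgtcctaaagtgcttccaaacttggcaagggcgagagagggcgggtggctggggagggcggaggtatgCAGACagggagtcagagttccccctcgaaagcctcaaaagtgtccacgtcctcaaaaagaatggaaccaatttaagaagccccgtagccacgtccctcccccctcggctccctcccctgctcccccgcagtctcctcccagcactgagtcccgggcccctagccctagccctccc
Col3a1, chr1:45311288-45311537, plus strand: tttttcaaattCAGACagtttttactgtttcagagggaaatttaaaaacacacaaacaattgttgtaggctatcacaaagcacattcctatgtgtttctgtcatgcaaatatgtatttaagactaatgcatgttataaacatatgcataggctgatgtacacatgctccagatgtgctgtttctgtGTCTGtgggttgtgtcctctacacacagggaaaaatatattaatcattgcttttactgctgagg
Col5a1, chr2:27886175-27886424, plus strand: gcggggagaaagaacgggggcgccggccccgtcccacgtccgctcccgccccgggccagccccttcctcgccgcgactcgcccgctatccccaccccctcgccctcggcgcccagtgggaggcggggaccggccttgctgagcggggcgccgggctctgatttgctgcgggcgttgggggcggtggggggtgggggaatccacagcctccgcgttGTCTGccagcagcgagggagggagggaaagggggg
Col5a3, chr9:20815068-20815317, minus strand: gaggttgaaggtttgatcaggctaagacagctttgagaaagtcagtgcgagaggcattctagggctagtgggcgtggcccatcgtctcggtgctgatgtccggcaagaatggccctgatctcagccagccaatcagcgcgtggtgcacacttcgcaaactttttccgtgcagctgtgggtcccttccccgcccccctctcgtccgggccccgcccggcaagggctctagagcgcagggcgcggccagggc
Col15a1, chr4:47207762-47208011, plus strand: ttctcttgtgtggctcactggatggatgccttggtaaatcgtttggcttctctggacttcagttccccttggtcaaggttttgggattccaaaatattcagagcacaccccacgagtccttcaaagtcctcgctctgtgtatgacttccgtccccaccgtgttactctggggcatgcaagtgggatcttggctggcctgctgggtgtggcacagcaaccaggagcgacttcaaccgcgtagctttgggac
Col17a1, chr19:47692043-47692292, minus strand: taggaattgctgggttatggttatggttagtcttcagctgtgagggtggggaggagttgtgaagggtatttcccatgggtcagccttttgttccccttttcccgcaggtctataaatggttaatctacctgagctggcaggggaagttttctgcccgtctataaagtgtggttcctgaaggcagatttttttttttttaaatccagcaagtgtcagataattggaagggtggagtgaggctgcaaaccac

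The element stood once in the Col1a2 window at -175 from the start site, at -239 and -64 in the Col3a1 window, and once at -35 in the Col5a1 window. The Col5a3, Col15a1 and Col17a1 windows held none, so the 4 fibrillar chains printed do not all hold it. CAGAC on either strand was in 15 of 36 windows of collagen chains (41.7%) and in 42.2% of all 32851 windows of the same length. GGCGCC, the letters of another element that Smad proteins can bind, was in 11.1% of the collagen windows and 9.59% of all. CCAAT on either strand was in 36.1% of the collagen windows and 33.8% of all, and TATAAA in 13.9% and 12.4%. The shares in the collagen windows lay close to those of all windows. Windows were found for 33 of the 42 chains, and such matches are a description of letters and not of bound sites.

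Among the basement membrane chains Col15a1 alone passed the test, while the type IV chains were level or low. Of the 8 chains 6 had negative log2 fold changes at 12 months, and the median was -0.30. Col15a1, whose product links basement membrane to the fibrils beneath, had 283, 213 and 348 in tumours, against 59.9, 73.3 and 88.5 in wild type lungs. Every tumour lay above every wild type lung, and the rise was 1.71 ± 0.20 on the log2 scale, or 3.28-fold (SE, n = 3 each; adjusted p = 0.00745, limma). Col18a1, its closest relative and the source of endostatin, had 333, 489 and 393 in tumours, against 402, 306 and 345 in wild type lungs. Those groups overlapped (0.19 ± 0.17, adjusted p = 0.498, limma).

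Col4a3 and Col4a4 had the lowest log2 fold changes of all 42 chains, and the tumours differed widely among themselves. Col4a3, one of the chains of the alveolar type IV network, had 916, 1465 and 443 in tumours, against 2232, 2519 and 2310.4 in wild type lungs. Col4a4, its partner, had 862, 1443 and 353 in tumours, against 1873, 2268 and 2079.7 in wild type lungs. All tumours lay below all wild type lungs for both, and the tumours spanned 3.31-fold for Col4a3 where the wild type lungs spanned 1.13-fold. The log2 fold changes were -1.46 ± 0.40 for Col4a3 (adjusted p = 0.0585) and -1.42 ± 0.47 for Col4a4 (adjusted p = 0.0977, limma), so neither passed. A further probe set of Col4a4, in a fit added after seeing the data with every probe set on its own, had a log2 fold change of -1.82 (adjusted p = 0.0346, limma). In that fit the other further probe set of Col4a4 (-1.40, adjusted p = 0.0804) and the further one of Col4a3 (-1.39, adjusted p = 0.0782) did not pass. Without tumour array 2, the tumour with the highest values, Col4a3 (-1.86, adjusted p = 0.0175) and Col4a4 (-1.87, adjusted p = 0.0288) passed. With all 15 arrays in 1 model the adjusted p was 0.00215 for Col4a3 and 0.00725 for Col4a4 (limma). That model also draws on the 7-month arrays, where the residual SD of Col4a3 was 0.077, against 0.605 at 12 months. Of 16 alternatives run, 12 for Col4a3 and 14 for Col4a4 left the chain uncalled. The weakest log2 fold changes among the alternatives were -1.01 for Col4a3 and -0.88 for Col4a4.

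The chains of the common type IV network were closer to wild type. Col4a1 had 3197, 4302 and 2967 in tumours, against 3554, 4107 and 4611 in wild type lungs, which overlapped (-0.24 ± 0.17, adjusted p = 0.403, limma). Col4a2 had 2541, 3377 and 2338 in tumours, against 3269, 3689 and 3720.0 in wild type lungs (-0.38 ± 0.15, adjusted p = 0.148). Col4a5, the third chain of the alveolar network, had 942, 1485 and 1217 in tumours, against 1593, 1505 and 1525 in wild type lungs, with all tumours below (-0.36 ± 0.17, adjusted p = 0.200, limma). Col4a6 had a log2 fold change of -0.08 ± 0.18 (adjusted p = 0.804).

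Markers of other cells moved at 12 months beside these chains. In pieces of tissue, fewer cells of a type and less RNA per cell cannot be told apart. Of 10 alveolar type 1 markers 3 were lower in tumours and 0 higher, and their summed intensity was 21999 to 35239 in tumours against 38498 to 42347 in wild type lungs. Of 12 endothelial markers 8 were lower and 0 higher, with sums of 10670 to 17252 in tumours against 24522 to 27174 in wild type lungs. The tumour with the highest sum of both lists was array 2 and the one with the lowest was array 3, the order in which Col4a3 and Col4a4 stood. That order was not particular to these lists. Alveolar type 2 markers, with 0 of 7 called, had sums of 47675, 62057 and 35809 on tumour arrays 1, 2 and 3. Fibroblast markers did not move together, with 2 of 11 higher (Pi16 and Scara5), 2 lower (Pdgfra and Tcf21), and sums of 29173 to 33844 in tumours against 36330 to 39195 in wild type lungs. Smooth muscle markers had 1 of 9 higher (Myocd) and 0 lower, with positive log2 fold changes for all 9 and a median of 0.53 (limma). Their sums were 11998, 14236 and 16122 on tumour arrays 1, 2 and 3, the order in which Col1a1 stood, against 9038 to 11918 in wild type lungs. The sums kept the order of Col1a1 in wild type lungs of 7 months too (11662, 11887 and 14139). They did not keep it in wild type lungs of 12 months (9038, 11918 and 10288) or in mutant lungs (10343, 12126 and 10027). In the difference between ages 3 of the 9 smooth muscle markers were called with a larger tumour effect (Tagln, Smtn and Myocd), beside 1.75% of all genes. At 7 months the median log2 fold change of that list was -0.255, so the difference did not come from the tumours alone. No alveolar type 1, endothelial, fibroblast or smooth muscle marker was under 16 on all arrays of a group. The part of the marker lists in the collagen differences was not tested.

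**Figure D3:**
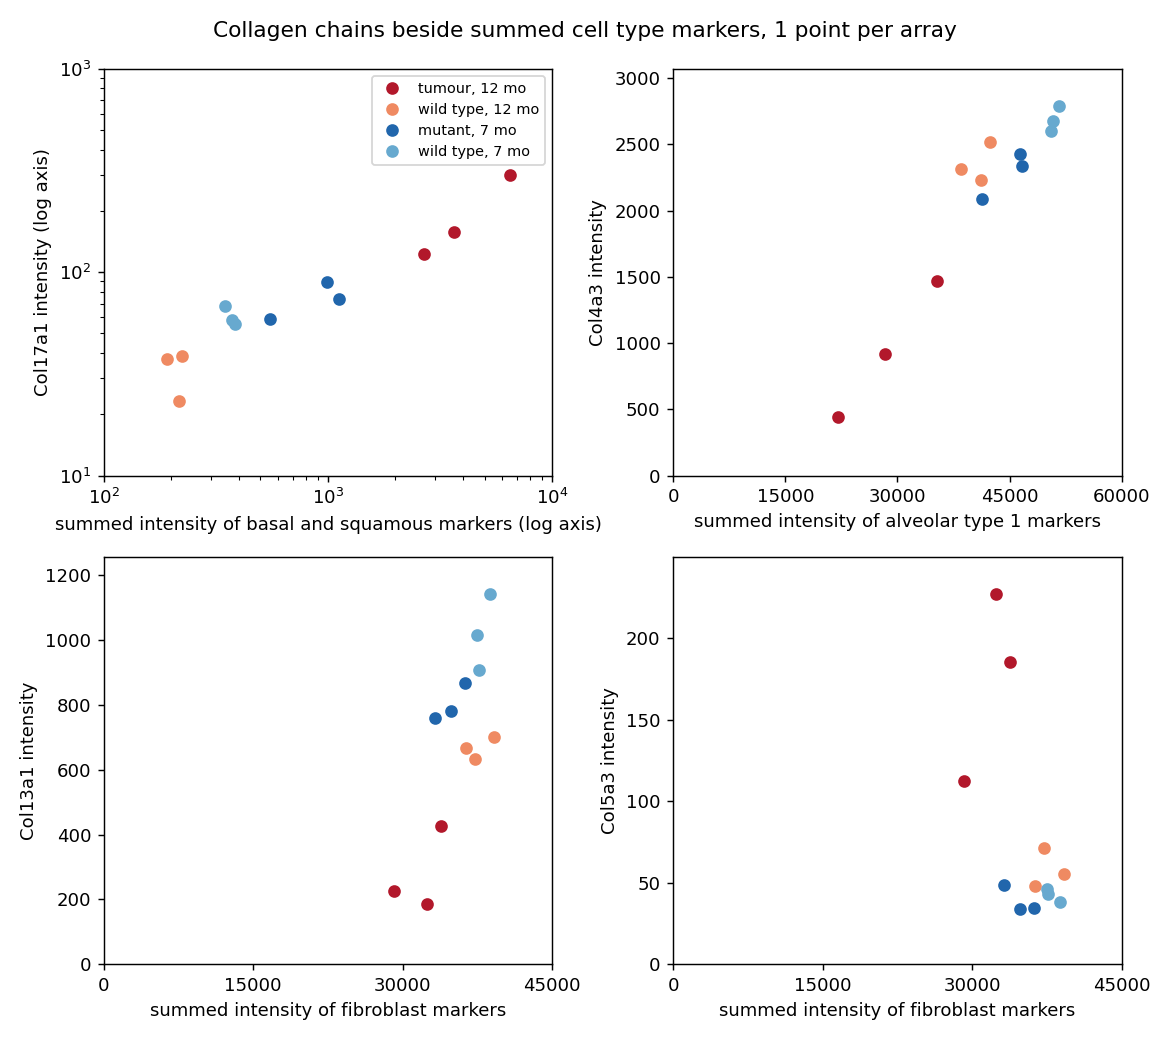
Intensity of Col17a1, Col4a3, Col13a1 and Col5a3 (vertical axes) against the summed intensity of a cell type marker list (horizontal axes: basal and squamous, alveolar type 1, and fibroblast for the other 2), 1 point per array, with log axes for Col17a1. Tumours hold the highest Col17a1 and basal marker sums and the lowest Col4a3 and alveolar type 1 sums, while their Col5a3 is high at fibroblast sums of 29173 to 33844.

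Col17a1 had the largest rise of any collagen chain. It encodes the membrane-spanning collagen of hemidesmosomes, which anchors basal epithelial cells to the basement membrane. Its intensities were 158, 123 and 301 in tumours, against 37.4, 38.7 and 23.3 in wild type lungs, and the tumours were all above. The rise was 2.02 ± 0.32 on the log2 scale, or 4.06-fold (SE, n = 3 each; adjusted p = 0.0133, limma). Basal and squamous cell markers stood beside it: 6 of 8 were higher in tumours and 0 lower, and their sum was 2694 to 6457 in tumours against 192 to 223 in wild type lungs. Krt14 and Krt17, defining keratins of those cells, were under 16 on all wild type arrays of both ages. Tumour array 3 was highest for both that sum and Col17a1 and tumour array 2 lowest, and the markers' part in the rise was not tested.

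Col7a1, which forms the anchoring fibrils below the same junctions, had 319, 337 and 360.3 in tumours, against 242, 237 and 266 in wild type lungs. The difference was small but even across arrays, at 0.42 ± 0.09 on the log2 scale, or 1.34-fold (adjusted p = 0.0271, limma). Col8a1, a short-chain network collagen of vessel walls, had 358, 535 and 816 in tumours, against 224, 270.3 and 242 in wild type lungs. It rose by 1.09 ± 0.28, or 2.13-fold, close to the threshold (adjusted p = 0.0492, limma). Col25a1, a membrane-spanning collagen best known from neurons, was dim at 31.6, 54.3 and 68.3 in tumours, against 12.4, 8.60 and 19.2 in wild type lungs. The groups did not overlap, and it rose by 1.17 ± 0.24 (adjusted p = 0.0260, limma), a fold change that the added 16 makes smaller for a gene this dim.

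Both chains that fell are anchored in the cell membrane, like Col17a1 and Col25a1, which rose. Col13a1, found at cell adhesions, had 227, 427 and 185 in tumours, against 667, 699.7 and 633 in wild type lungs, with no overlap. It fell by 1.29 on the log2 scale (SE 0.28), which is 2.45-fold lower (adjusted p = 0.0326, limma). Col23a1 had 399.9, 454 and 317 in tumours, against 649.9, 824 and 644 in wild type lungs, again with no overlap. It fell by 0.83 on the log2 scale (SE 0.16), which is 1.78-fold lower (adjusted p = 0.0232, limma). Both further probe sets of Col23a1 were lower as well, with log2 fold changes of -0.89 (adjusted p = 0.0273) and -1.05 (adjusted p = 0.0202) in the fit with every probe set on its own.

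The beaded filament collagen of type VI was close to wild type in the tumours. Col6a1 had 1674, 1962 and 1944 in tumours, against 1390.1, 1685 and 2023 in wild type lungs (0.14 ± 0.15, adjusted p = 0.592, limma). Its partners had log2 fold changes of 0.34 ± 0.16 for Col6a2 (adjusted p = 0.221) and 0.19 ± 0.21 for Col6a3 (adjusted p = 0.591). Of the chains that sit on fibril surfaces, Col12a1 had 149, 289 and 305 in tumours, against 119, 141 and 137 in wild type lungs, without overlap (0.77, adjusted p = 0.101), and Col14a1 did not pass either (0.29, adjusted p = 0.551, limma). Col8a2 is described with the 7-month lungs. The remaining 11 chains of this class, among them Col16a1, Col22a1 and the cartilage chains of type IX, did not pass. They lay between -0.36 for Col19a1 and 0.45 for Col20a1. With every probe set fitted on its own, a further probe set of Col20a1 was higher (0.78, adjusted p = 0.0475, limma). A dim further probe set of Col22a1 was lower in that fit (-0.47, adjusted p = 0.0372, limma), while the Col22a1 probe set used had 0.12.

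The 12-month calls rested on few arrays. Without any 1 of the 6 arrays, between 1 and 7 chains were called higher and between 0 and 5 lower. Col15a1 was called in every such fit, and Col17a1 in all but the one without wild type array 3 (adjusted p = 0.0556, limma). Each of the other 7 calls was lost without at least 4 of the 6 arrays in turn. In another fit only the wild type array without Xist was kept, a single array assumed to vary like the other groups. The log2 fold changes stayed close, with Col27a1 at 1.05 and Col8a1 at 0.96. The spread in that fit came from the other groups, the 7-month arrays included. Whether a chain passes there is therefore not comparable with the 12-month fit, and the part of sex in the calls was not tested. Of the 9 chains called, 5 had 7 further probe sets, of which 6 had the same sign, 2 of those passed, and 0 passed with the other sign. The further probe set of the other sign was the dim probe set of Col5a3 (-0.08).

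**Figure D4:**
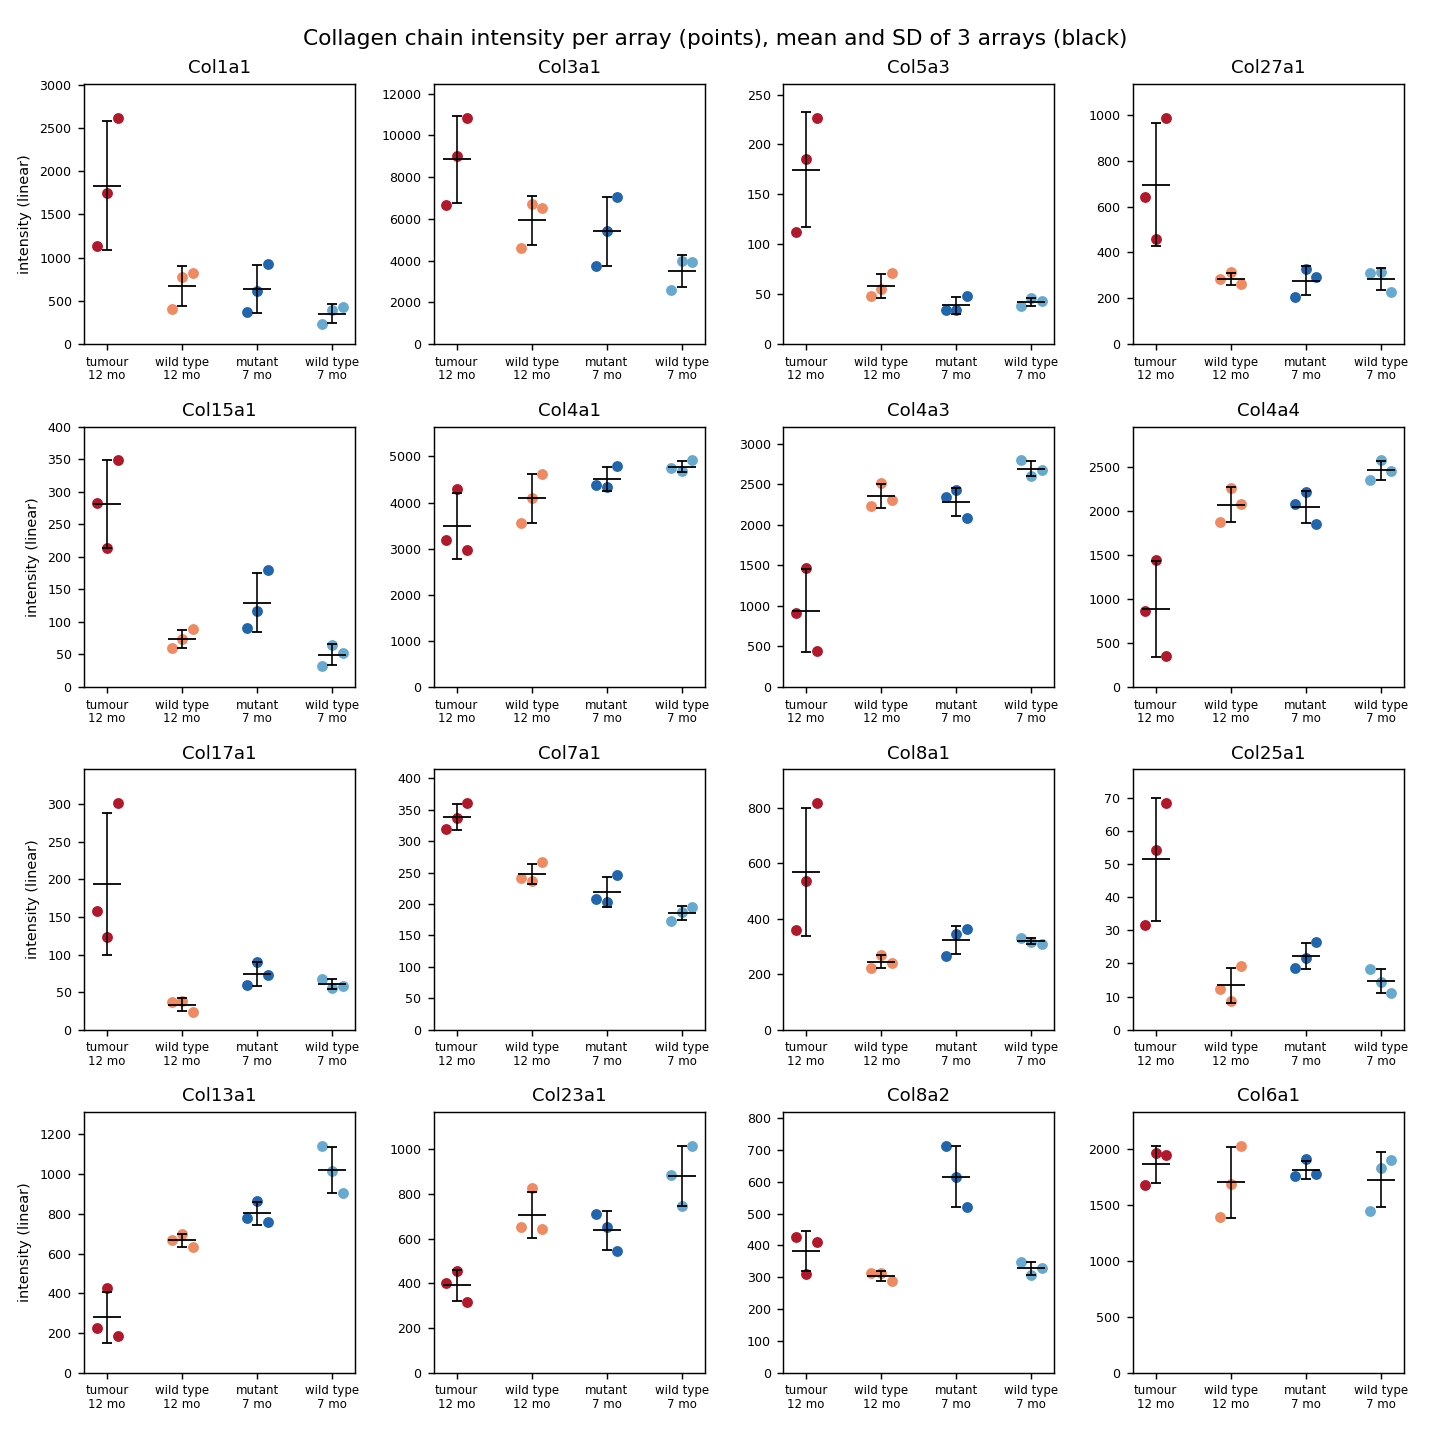
Intensity (linear) on each array (points) of 16 collagen chains, with the mean and SD of 3 arrays (black), in tumours and wild type lungs at 12 months and in mutant and wild type lungs at 7 months. Tumour points lie above wild type for Col15a1, Col17a1 and Col5a3 and below it for Col13a1, Col23a1, Col4a3 and Col4a4, and mutant points lie above wild type for Col15a1 and Col8a2 at 7 months.

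In the mutant lungs of 7 months the collagen chains as a whole stood near wild type, with a median log2 fold change of 0.01. Chains other than Col15a1 and Col8a2 lay between -0.46 for Col23a1 and 0.78 for Col1a1. Col15a1 again rose. It had 91.1, 117 and 179 in mutant lungs, against 31.9, 64.4 and 52.8 in wild type lungs, with no overlap, a rise of 1.13 ± 0.27 on the log2 scale, or 2.19-fold (SE, n = 3 each; adjusted p = 0.0415, limma). Col8a2, which partners Col8a1 in the type VIII network, had 711, 614 and 521 in mutant lungs, against 348, 307 and 327 in wild type lungs. All mutant arrays lay above all wild type arrays, and the rise was 0.87 ± 0.12, or 1.83-fold (adjusted p = 0.00228, limma). In the tumours Col8a2 had 426, 309 and 411, against 312, 312 and 287 in wild type lungs, which overlapped (0.30, adjusted p = 0.189, limma), and the difference between the effects at the 2 ages did not pass the test (-0.57, adjusted p = 0.111). Col8a2 was called at 7 months under each alternative run, and Col15a1 was not called with a pseudocount of 1, in a fit of only the 2 groups, or without wild type array 1 (0.92, adjusted p = 0.118), wild type array 3, mutant array 2 or mutant array 3 (0.90, adjusted p = 0.110).

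The fibrillar chains of the 7-month mutant lungs had a median log2 fold change of 0.18, and 0 of 11 passed or were separated between the groups. At an unadjusted p under 0.05, 2 of the 11 (18.2%) were higher and 0 lower, beside 14.1% of all genes higher and 9.21% lower (limma). Col1a1 had 369, 616 and 924 in mutant lungs, against 230.1, 392 and 430.0 in wild type lungs (0.78 ± 0.32, adjusted p = 0.190). Col3a1 had 3742, 5399 and 7049 in mutant lungs, against 2600.3, 3957 and 3911 in wild type lungs (0.61 ± 0.23, adjusted p = 0.163). For both chains mutant array 1 was lowest and mutant array 3 highest, and the groups overlapped. The log2 fold changes of Col1a2 (0.18 ± 0.12, adjusted p = 0.408) and Col5a1 (0.04 ± 0.19, adjusted p = 0.920, limma) were smaller.

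The alveolar type IV chains were slightly lower in mutant lungs on every array without passing the test. Col4a3 had 2337, 2424 and 2087 in mutant lungs, against 2792, 2604 and 2677 in wild type lungs (-0.24 ± 0.07, adjusted p = 0.0926, limma). Col4a4 had 2077, 2215 and 1855 in mutant lungs, against 2358, 2579 and 2461 in wild type lungs (-0.27 ± 0.09, adjusted p = 0.104). Col4a2 and Col4a5 were separated in the same direction. Across the family 7 chains, or 16.7%, had all mutant arrays below all wild type arrays, beside 10.9% of all genes, and 4 chains, or 9.52%, had all above, beside 15.2%. Col13a1 had 781, 867 and 759.8 in mutant lungs, against 1141, 1016 and 906 in wild type lungs (-0.34 ± 0.10, adjusted p = 0.0734, limma). Col23a1 had 712, 654 and 544 in mutant lungs, against 884, 744 and 1013 in wild type lungs (-0.46 ± 0.13, adjusted p = 0.0696, limma).

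Markers of other cells also stood beside these chains at 7 months. Of 10 alveolar type 1 markers 2 were lower, with sums of 41269 to 46679 in mutant lungs against 50534 to 51642 in wild type lungs. Of 12 endothelial markers 2 were lower, with sums of 24924 to 31042 in mutant lungs against 35008 to 35768 in wild type lungs. Basal and squamous markers had 2 of 8 higher, with sums of 551 to 1124 in mutant lungs against 346 to 386 in wild type lungs, and ciliated cell markers had 7 of 7 higher, with sums of 3820 to 4543 in mutant lungs against 1821 to 1915 in wild type lungs. Fibroblast markers had 0 of 11 called. The part of these cells in the rise of Col15a1 and Col8a2 was not tested.

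Col5a3 and Col17a1 differed between the ages in the test of the difference itself. The tumour effect exceeded the 7-month mutant effect by 1.42 ± 0.27 for Col5a3 (adjusted p = 0.0172) and by 1.80 ± 0.35 for Col17a1 (adjusted p = 0.0182, limma over all 15 arrays). Those are 2 of 42 chains, or 4.76%, beside 1.75% of all genes with a larger tumour effect, and 0 chains had a smaller one beside 1.41%. Without adjustment, 8 chains (19%) had a larger and 6 (14.3%) a smaller tumour effect at p under 0.05, beside 9.33% and 9.5% of all genes (limma). At 7 months Col5a3 had 33.7, 34.3 and 48.4 in mutant lungs, against 38.0, 45.9 and 43.3 in wild type lungs, and Col17a1 had 59.0, 89.8 and 73.4 in mutant lungs, against 67.9, 55.5 and 58.1 in wild type lungs. Both pairs of groups overlapped. The comparison sets a tumour against a whole lung of another age, so age and tissue cannot be told apart. The fit also takes 1 spread per gene from all 15 arrays. For Col5a3 the residual SD on the log2 scale was 0.37 at 12 months and 0.142 at 7 months. For Col17a1 it was 0.474 and 0.19, so the tighter 7-month arrays lower the standard error of both differences. With only the wild type array without Xist kept at 12 months, the differences were 1.47 for Col5a3 (adjusted p = 0.101) and 1.62 for Col17a1 (adjusted p = 0.159), so the sizes stayed close with 2 fewer arrays while the calls were lost. With all probe sets of a gene averaged Col5a3 did not pass (0.78, adjusted p = 0.0712).

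For the other chains called at 12 months the difference did not pass. Col15a1 differed by 0.58 ± 0.37 (adjusted p = 0.438), Col27a1 by 1.22 (adjusted p = 0.0635), Col8a1 by 1.08 (adjusted p = 0.0725) and Col13a1 by -0.95 (adjusted p = 0.105, limma). Among the main fibrillar chains it was 0.63 for Col1a1 (adjusted p = 0.581) and -0.04 for Col3a1 (adjusted p = 0.971). Median differences were 0.63 for fibrillar, -0.22 for basement membrane and 0.20 for other chains.

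Genes that modify, cut or bind collagen were counted beside the chains, against 9.23% of all genes higher and 6.02% lower in tumours. Of 18 genes of collagen modification and folding 0 were higher in tumours and 1 was lower: Colgalt2, which adds galactose to collagen lysines, had 66.7, 86.5 and 66.2 in tumours, against 158, 125 and 159.8 in wild type lungs (adjusted p = 0.0129, limma). Serpinh1, the collagen chaperone, did not pass (0.25, adjusted p = 0.641). At 7 months 0 of the 18 were called.

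Of 14 genes of propeptide cleavage and fibril assembly 2 were higher in tumours and 1 was lower. Lum, a small proteoglycan that spaces collagen fibrils, had 1301, 1729 and 3194 in tumours, against 293, 395 and 413 in wild type lungs. Its rise of 2.36 ± 0.33 on the log2 scale, or 5.14-fold (adjusted p = 0.0107, limma) stood beside 2.02 for Col17a1, the largest among the collagen chains. Dcn, the related proteoglycan decorin, had 5538, 6384 and 7342 in tumours, against 3547, 3737 and 3408 in wild type lungs, a rise of 0.84 ± 0.12, or 1.79-fold (adjusted p = 0.0110). Both were separated between the groups. Pcolce2, an enhancer of the enzyme that trims procollagen, had 957, 2138 and 800.2 in tumours, against 3166, 3336 and 2809 in wild type lungs, and was 2.60-fold lower (adjusted p = 0.0495, limma). The crosslinking enzyme Lox did not pass (-0.14, adjusted p = 0.744). At 7 months 0 of the 14 were called. Lum had 268, 638 and 579 in mutant lungs, against 210, 254 and 239 in wild type lungs, without overlap (0.94 ± 0.28, adjusted p = 0.0850, limma). Its difference between the ages did not pass (1.42, adjusted p = 0.119, limma). Dcn differed between the ages by 0.89 (adjusted p = 0.0164, limma).

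Of 9 collagen receptors 0 were higher and 2 were lower in tumours. Itga1, the alpha chain of an integrin that binds type IV collagen, had 349, 482 and 361 in tumours, against 637, 723.5 and 623 in wild type lungs, and was 1.65-fold lower (adjusted p = 0.0242, limma). Lair1, an inhibitory receptor of immune cells, had 99.3, 91.5 and 106 in tumours, against 145, 137 and 203 in wild type lungs, and was 1.53-fold lower (adjusted p = 0.0449). At 7 months the epithelial collagen receptor Ddr1 alone was called, with 2263, 2491 and 2211 in mutant lungs against 1513, 1689 and 1888 in wild type lungs, a rise of 0.45 ± 0.09, or 1.37-fold (adjusted p = 0.0180, limma).

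Some chains were too dim for their level to be read. Col9a2 and Col10a1, chains of cartilage, were under 16 on all 12 arrays, 7 more chains were under 16 on some arrays, and 33 were above it on all. Cartilage markers had 2 of 11 higher in tumours (Comp and Sox9) and the same 2 higher in mutant lungs.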

How the data were processed

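Tissue RNA was isolated with TRIzol and RNeasy and labelled as biotinylated cRNA by 3' IVT Express, per the labels' protocols; this labelling favours transcript 3' ends. The authors deposited 1 linear intensity per probe set and array for 45101 probe sets. Scanner, background correction, summarisation and scaling are not given in the sources used here. The number of arrays limits the precision.

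Gene symbols came from the platform annotation, which listed 35890 probe sets, and 932 with several symbols were left out. A gene was read from its brightest probe set by mean log2(intensity + 16) over 15 arrays, which gave 18193 genes. 27 of the 42 chains had more than 1 probe set (82 in all).

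Values of log2(intensity + 16) were fitted with limma 3.58.1 in R 4.3.3, two-sided, with Benjamini-Hochberg adjustment over all genes and calls at an adjusted p under 0.05. The 12-month fit used 6 arrays, the 7-month fit 9 and the difference of effects 15. A fold change is on the log2(intensity + 16) scale and understates dim genes. On simulated data with this design, 97% of 4-fold changes, 59.7% of 2-fold and 23.9% of 1.5-fold changes were called at 12 months. At 7 months the shares were 100%, 86.6% and 53.7%. The simulation changed 66 or 67 genes of each size among 18193, and 4 unchanged genes were called at 12 months and 12 at 7 months. In the tumours 1679 genes were called higher and 1095 lower. The adjustment depends on how many genes change, so these shares need not hold for the real arrays.

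The mutant genotype holds a further allele, and a further group of 3 arrays at 7 months was measured; neither is reported here, though those arrays entered the choice of probe sets and the 9-array and 15-array fits. The members, gene lists and tests were chosen with earlier results of these data known. By rule, values per array are given for called chains and for the main type I, III, V, IV, VI, XV, XVII and XVIII chains; those of Col5a2, Col11a1 and Col12a1 were added after their values were seen. Alternatives were quantile normalization, median centring, pseudocounts of 1 and 64, a filter on dim genes, other probe set rules, other fits, a replicate block, 1 wild type array alone and leaving out each array. Promoters are from RefSeq (GRCm38.p6).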

Additional observations from a re-analysis of the deposited data

Results flagged for a closer look

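The effects at 12 and 7 months differed in a test of the difference for 2 chains. For Col5a3 the tumour effect exceeded the mutant effect by 1.42 on the log2 scale (adjusted p = 0.0172, limma), and every tumour array lay above every wild type array while the 7-month groups overlapped. For Col17a1 the tumour effect exceeded the mutant effect by 1.80 on the log2 scale (adjusted p = 0.0182, limma), with the same pattern of overlap. Tissue, age and sex differ between the comparisons, and their part was not tested. The fit shares 1 spread between the ages, and the residual spread of both chains was larger at 12 months than at 7 months.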

How the results depend on the processing

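Counts of called chains depended on the fit. The share of all genes called was not counted under the alternatives, so these counts have no background beside them. At 12 months 7 chains higher became 14 with all 15 arrays in 1 fit and 1 to 7 with 1 array left out. It was 5 with a pseudocount of 1 (Col27a1 and Col8a1 lost), 5 with the mean of all probe sets (Col27a1, Col5a3 and Col8a1 lost, Col20a1 gained) and 6 with quantile normalization (Col8a1 lost). With every probe set fitted on its own, an alternative chosen after seeing the data, Col8a1 (adjusted p = 0.0542) and the 7-month Col15a1 call (adjusted p = 0.0506) were lost. The 2 chains lower became 6 with all 15 arrays, 1 with a pseudocount of 1, and 0 to 5 with 1 array left out. At 7 months 2 chains higher became 1 with a pseudocount of 1 and 1 in a fit of only the 2 groups, and 1 to 3 with 1 array left out. The 0 chains lower became 2 with a pseudocount of 64, 2 without dim genes and 4 with a robust variance trend, and 0 to 1 with 1 array left out. For the difference between ages 2 chains became 1 with the mean of all probe sets, 0 against the wild type array without Xist alone, and 1 to 7 with 1 array left out (7 without tumour array 1, 1 without mutant array 1); 0 chains with a smaller tumour effect became 0 to 4 (4 without tumour array 2).

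Signs turned for chains near 0. At 12 months Col4a6 became 0.069 with the mean of all probe sets and 0.048 against the wild type array without Xist alone, and ranged from -0.19 to 0.091 with 1 array left out. At 7 months Col18a1 became -0.006 with quantile normalization, -0.009 with median centring and -0.033 with the mean of all probe sets, Col8a1 became -0.01 with quantile normalization and -0.014 with median centring, and Col4a6 became -0.03 with the mean of all probe sets. With 1 array left out, 7-month values ranged from -0.19 to 0.14 for Col27a1, -0.11 to 0.25 for Col5a1, -0.10 to 0.11 for Col18a1, -0.04 to 0.16 for Col6a1, -0.02 to 0.16 for Col6a2, -0.15 to 0.056 for Col6a3, -0.071 to 0.14 for Col8a1 and -0.001 to 0.562 for Col4a6. Apart from the smaller number of arrays in the fits that leave some out, the cause was not tested.

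A replicate block at 7 months gave 2 chains higher and 0 lower, with Col15a1 at 1.13 (adjusted p = 0.00820) and Col8a2 at 0.87 (adjusted p = 0.0108, limma); over all genes same-numbered arrays did not deviate together (correlations of -0.128, 0.025 and -0.085), so the numbers were not taken as pairs, although array 1 was lowest and array 3 highest for Col1a1 in each group. Under the block Col1a1 (0.78, adjusted p = 0.121) and Col3a1 (0.61, adjusted p = 0.113) did not pass. Dim chains near 16 have little signal over background, and their changes are poorly resolved.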

Other observations

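The other marker lists had these counts. Ciliated cell markers were higher in tumours for 7 of 7, with sums of 6731 to 10661 in tumours against 2970 to 3855 in wild type lungs. Cardiac muscle markers were higher in tumours for 8 of 8, with sums of 32692 to 37049 in tumours against 12890 to 18647 in wild type lungs, and 1 of 8 was higher in mutant lungs at 7 months. Macrophage markers were lower in tumours for 4 of 8 and called for 0 of 8 at 7 months. Smooth muscle markers had 1 of 9 lower in mutant lungs (Smtn), with sums of 10027 to 12126 in mutant lungs against 11662 to 14139 in wild type lungs. Mesothelial markers had 3 of 7 higher and 1 lower in tumours, and 1 higher and 2 lower in mutant lungs. Alveolar type 2 markers had 0 of 7 called at either age (limma).

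Wild type levels of some chains differed between the 2 ages. They are set side by side without a test, since the series describes the ages as separate studies. Col16a1 averaged 171 at 12 months and 508 at 7 months, and Col12a1 132 at 12 months and 469 at 7 months. Col11a2 averaged 71.5 at 12 months and 15.5 at 7 months, and Col1a1 669 at 12 months and 351 at 7 months. The further probe sets of Col12a1 did not follow, at 65.8 and 66.5, 21.9 and 18.7, and 18.3 and 9.07 at 12 and 7 months. The further probe set of Col1a1 averaged 612.5 at 12 months and 81.4 at 7 months.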
